A study of Homo sapiens with 16 samples.

Results

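The CCN family is a group of 6 secreted proteins named after CYR61, CTGF and NOV, its first members, and completed by WISP1, WISP2 and WISP3. Its expression was followed here in MCF10A cells, a nontransformed line of human breast epithelial cells, during inhibition of the receptor tyrosine kinase HER2. The members were all rows of the deposited intensity table that carry 1 of the 6 symbols, which gave 9 probes among 20589 rows. NOV, CTGF, CYR61 and WISP2 had 1 probe each, WISP1 had 2 and WISP3 had 3, and every probe was kept separate. The family was chosen by the fall of NOV, its mean log2 level at 36 to 45 h against that at 0 to 9 h, so the values of NOV are a description and were not tested.

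RNA came from parallel cultures collected every 3 h from 0 to 45 h, with 1 Illumina array at each of 16 time points. The 0 h culture was untreated, and the other 15 received the HER2 kinase inhibitor CP724,714 at 1 µM. All cultures grew without serum in medium with insulin, hydrocortisone and epidermal growth factor, so a ligand of the EGF receptor was present throughout. The cultures were not yet confluent at the start of treatment, when they were also given fresh medium. There was no parallel series of untreated cultures among these arrays, so effects of the inhibitor, the fresh medium and the time in culture cannot be told apart. MCF10A is a single cell line, the labels name 1 sample per time point, and the spread below is the spread between neighbouring time points.

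CCN proteins are matricellular proteins: they are secreted into the matrix around the cell and act by binding integrins, heparan sulphate proteoglycans and growth factors. CTGF and CYR61 respond quickly to growth factors and mechanical load, and are widely used as readouts of the Hippo pathway effectors YAP and TAZ, which drive them through TEAD transcription factors. NOV binds integrins and the Notch1 receptor and restrains growth in many settings, and WISP2 differs from the others in lacking the C-terminal domain.

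The promoter of CTGF is shown because TEAD factors act on it directly. The 250 bases before its annotated start are at chr6:131951373-131951622 of GRCh38.p14, on the minus strand, taken from RefSeq and written 5′ to 3′ with matches to the TEAD motif GGAATG in capitals.
CTGF promoter: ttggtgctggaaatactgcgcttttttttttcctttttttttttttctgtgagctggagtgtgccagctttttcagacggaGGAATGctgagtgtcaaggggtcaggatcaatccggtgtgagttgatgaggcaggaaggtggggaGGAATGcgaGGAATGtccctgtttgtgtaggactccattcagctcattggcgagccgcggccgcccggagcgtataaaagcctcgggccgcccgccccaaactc
It held 3 matches, whose first bases lie 169, 104 and 95 bases before the start. Both strands were searched, for GGAATG, for the AP-1 motif TGANTCA and for the CArG box, the site of serum response factor. Of 35116 promoter windows of this length, 11.9% held at least 1 GGAATG and 0.0826%, or 29, held at least 3. The CTGF window held no TGANTCA and no CArG box, which 6.57% and 1.16% of all windows held. The promoter table matched 2 of the 6 members, and the other match, WISP3, had 1 GGAATG that begins 128 bases before its start. No motif overlapped another, and a match of letters is not a measured binding site.

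Levels are given as the deposited bead intensity, on a linear scale, or as log2 of the intensity after background correction and quantile normalization. Median array intensity ran from 210 to 254, and 50.1 to 52.9% of rows were detected on an array, meaning a detection p under 0.05 against the negative control beads. The inferred negative control level was 188 to 199 on the arrays of 0 to 21 h and 166 to 185 on those of 24 to 45 h. The labels name no chip, so a chip boundary between 21 and 24 h cannot be told apart from time in comparisons of 36 to 45 h with 0 to 9 h or across 21 to 24 h. Comparisons within 0 to 21 h or within 24 to 45 h do not cross it. Probes detected on at least 3 arrays were tested, 11957 in all, and of the 9 member probes 4 passed. They were the probes of NOV, CTGF and CYR61, each detected on all 16 arrays, and 1 probe of WISP3, detected on 5.

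NOV, the member known for restraint of growth, lost most of its signal. Its deposited intensity was 1303 at 0 h, 1135 at 3 h, 940.1 at 6 h and 856 at 9 h. It was 503, 406, 412 and 384 at 12, 15, 18 and 21 h, and then 427, 418, 320.04 and 367 at 24, 27, 30 and 33 h. The last time points held 303, 256, 255 and 249 at 36, 39, 42 and 45 h. The 4 earliest arrays lay above all 12 later ones, and the 4 latest below all 12 earlier ones.

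**Figure D1:**
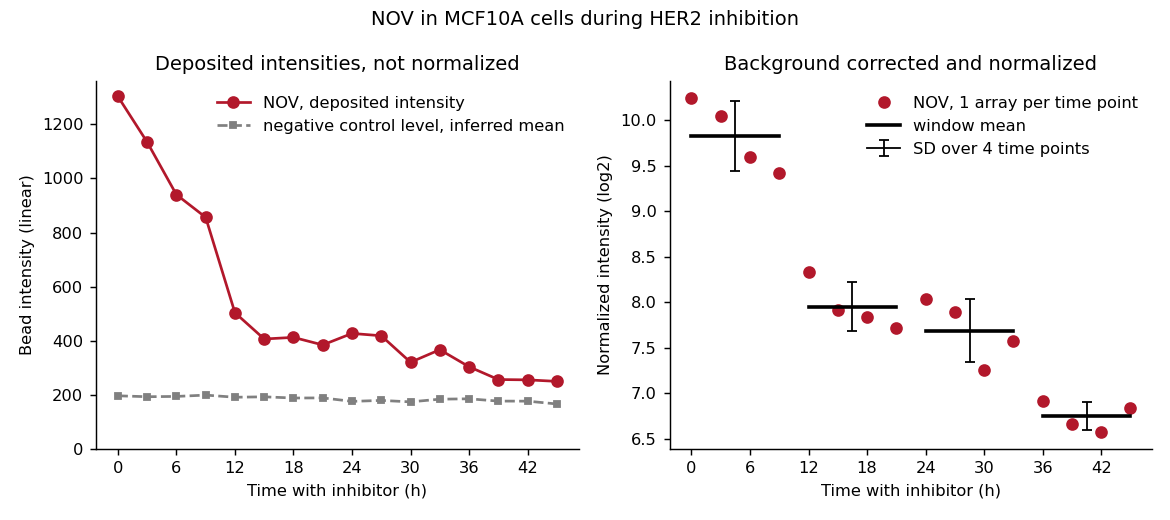
NOV against time with inhibitor in h. Left, the deposited linear intensity with the inferred negative control level as a dashed line; right, the normalized log2 intensity, 1 point per array, with the mean of each 4 time points as a bar and their SD as whiskers. The signal falls from 1303 to 503 between 0 and 12 h, lies between 384 and 503 until 27 h, and ends at 249, 1.50 times the negative control level.

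The course of NOV had steps. The mean log2 level was 9.83 ± 0.38 (SD, n = 4 time points) at 0 to 9 h, 7.95 ± 0.27 at 12 to 21 h, 7.69 ± 0.35 at 24 to 33 h and 6.75 ± 0.15 at 36 to 45 h. Of the whole difference of -3.08 between the first and last of these windows, 60.9% lay between the windows of 0 to 9 h and 12 to 21 h, 8.48% between the middle windows and 30.6% between 24 to 33 h and 36 to 45 h. The middle windows overlapped, and their difference of -0.26 is smaller than the SD of either. Of all tested probes 29.5%, 0.0251% and 38% were called in the same intervals, in that order. Such steps with a level middle are therefore not particular to NOV.

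The steepest interval was 9 to 12 h. The log2 level was 10.25 at 0 h and 9.43 at 9 h, a 1.77-fold difference, and the next array at 12 h read 8.33, lower by 2.13-fold in 3 h. NOV was first under 1/2 of its 0 h level at 12 h. Its intensity was 6.65 times the negative control level at 0 h and 1.50 times at 45 h, where its detection p was 0.014. Near background the size of a fold depends on the background correction: 0 h over 45 h was 5.23-fold in deposited intensity and 10.6-fold after correction and normalization.

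CTGF, the connective tissue growth factor, followed a U-shaped course. It fell within 6 h of inhibitor, stayed low until 33 h and was near its starting level from 36 h. Its deposited intensity was 1857 at 0 h, 1391 at 3 h, 888 at 6 h and 892 at 9 h. It then lay between 897 and 1298 at every time point from 12 to 33 h, and read 1666, 1835, 1569.8 and 1844 at 36, 39, 42 and 45 h. All 4 late arrays were above all arrays of 3 to 33 h, and the 0 h array lay among them on the log2 scale, at 10.86 against 10.44 to 10.89.

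The early fall of CTGF was tested in a fit of 8 consecutive pairs of time points. Log2 levels were 10.86 and 10.40 at 0 and 3 h and 9.51 and 9.50 at 6 and 9 h, a difference of -1.13 (SE 0.19), or 2.19-fold lower (limma, adjusted p = 0.00049). CTGF was the 1 member called among the 3 tested besides NOV, whereas 24.7% of all tested probes were called in this comparison, 11.5% lower. The largest single interval was 3 to 6 h, with a log2 difference of -0.90.

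The late rise of CTGF was called as well. Its mean log2 level was 9.78 ± 0.22 (SD, n = 4 time points) at 24 to 33 h and 10.66 ± 0.23 at 36 to 45 h, a difference of 0.87 (SE 0.23), or 1.83-fold higher (limma, adjusted p = 0.0068). CYR61 was called in the same direction, so 2 of the 3 tested members rose in this interval. Of all tested probes 38% were called here, 19.3% higher and 18.7% lower. The change from 12 to 21 h to 24 to 33 h was 0.11 (adjusted p = 1.0), in an interval in which 0.0251% of probes, 3 in number, were called.

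Because CTGF ended near where it began, the comparison of the last with the first 4 time points averaged over its fall. The first window held both the high and the low levels (10.06 ± 0.68, SD, n = 4 time points), and the difference of 0.59 (SE 0.23) was not called (limma, adjusted p = 0.063). It was called without the 0 h array, at 0.86 (adjusted p = 0.0018), or without the 3 h array, at 0.70 (adjusted p = 0.042). Over the whole time course CTGF was called (limma F-test of a spline, adjusted p = 0.00036), as were 54.6% of all tested probes, and a straight line in time did not call it (adjusted p = 0.33).

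**Figure D2:**
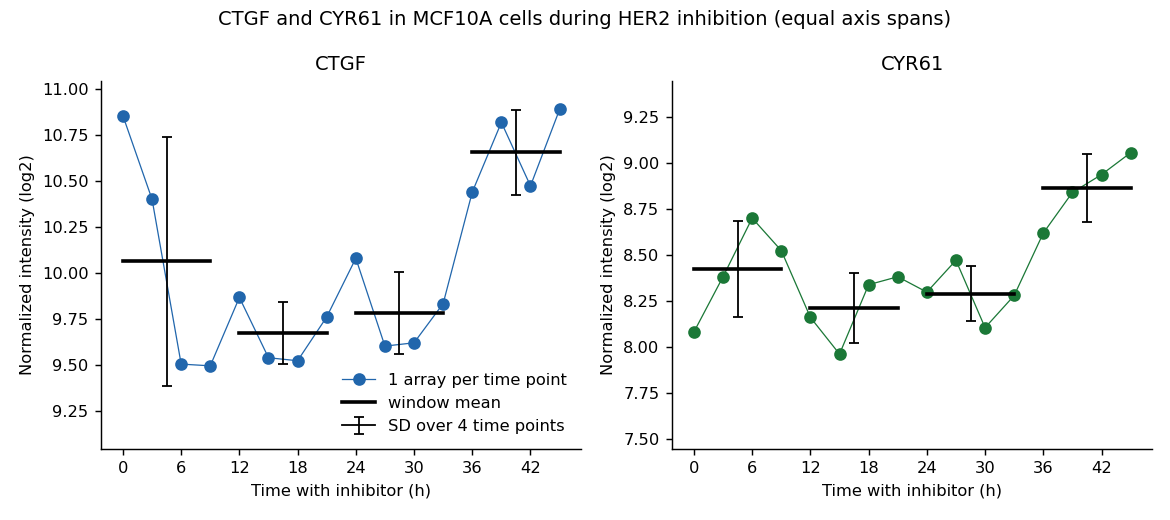
Normalized log2 intensity of CTGF (left) and CYR61 (right) against time with inhibitor in h, on axes of equal span. Points are single arrays, bars the mean of each 4 time points and whiskers their SD. CTGF drops from 10.86 to 9.51 between 0 and 6 h while CYR61 goes from 8.08 to 8.70, and both are higher at 36 to 45 h than at 24 to 33 h.

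CYR61, the cysteine-rich inducer of adhesion and migration, had a narrower range than CTGF and read higher, not lower, in the early hours. Its deposited intensity was 437 at 0 h, 482 at 3 h, 585 at 6 h and 538 at 9 h. From 12 to 33 h it lay between 416 and 552, and at 36, 39, 42 and 45 h it read 606, 597, 659 and 623. By intensity the 4 late arrays were above all 12 others, while on the normalized log2 scale the 36 h array, at 8.62, lay below the 6 h array, at 8.70.

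Over the hours in which CTGF fell, the log2 level of CYR61 was 8.08 and 8.38 at 0 and 3 h and 8.70 and 8.53 at 6 and 9 h. The difference of 0.38 (SE 0.16) was not called (limma, adjusted p = 0.090), but was without the 3 h array, at 0.53 (adjusted p = 0.037). The opposite signs of CTGF and CYR61 here were not tested against each other. CTGF minus CYR61 on the log2 scale went from 2.77 at 0 h to 0.80 at 6 h and was 1.83 at 45 h, and since these are different probes only the changes of this difference can be read.

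The late rise of CYR61 was called. Its mean log2 level was 8.29 ± 0.15 (SD, n = 4 time points) at 24 to 33 h and 8.86 ± 0.19 at 36 to 45 h, a difference of 0.57 (SE 0.14), or 1.49-fold higher (limma, adjusted p = 0.0041). Against 0 to 9 h (8.42 ± 0.26) the difference was 0.44 (SE 0.14), or 1.36-fold higher (limma, adjusted p = 0.026). That made CYR61 the 1 member called of 3 tested besides NOV, where 31.2% of all tested probes were called, 16.2% higher. This call was lost without the array of 0 h (0.33, adjusted p = 0.072), 3 h (0.43, 0.050), 42 h (0.42, 0.065) or 45 h (0.38, 0.083), values of the log2 difference and limma's adjusted p. Over the time course CYR61 was called (limma F-test, adjusted p = 0.0052).

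Between 0 to 9 h and 12 to 21 h, when NOV lost the larger share of its signal, neither CTGF nor CYR61 was called. The log2 differences were -0.39 for CTGF (limma, adjusted p = 0.23) and -0.21 for CYR61 (adjusted p = 0.29), in an interval with 29.5% of probes called, 14.4% lower. The fall of CTGF lay within the window of 0 to 9 h (10.06 ± 0.68, SD, n = 4 time points), so this comparison averages over it and does not show that CTGF was unchanged. In the 36 to 45 h window CYR61 had its highest 4 deposited intensities. CTGF, at 10.44 to 10.89 on the log2 scale, was near its 0 h level of 10.86. NOV had its lowest 4 values there, but its fall to this window chose the family, so no parting of the genes is read from it.

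The WISP genes, which take their name from induction by Wnt1, gave little or no signal above background. The brightest WISP3 probe, ILMN_20569, had intensities between 195 and 275 with a median of 226, and was detected at 0, 9, 12, 15 and 24 h. Its mean log2 level was 6.21 ± 0.27 (SD, n = 4 time points) at 0 to 9 h, with 2 arrays detected, and 5.95 ± 0.17 at 36 to 45 h, with none. The difference of -0.26 (SE 0.14) was not called (limma, adjusted p = 0.17). The time course was not called either (adjusted p = 0.10), though it was without the 6 h array (adjusted p = 0.032). The inferred negative control level also fell from early to late arrays, as given above, and its part in the lower late intensities of WISP3 was not tested.

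The other 5 WISP probes did not pass the filter. WISP1 probe ILMN_9186 was detected at 15 and 39 h, with intensities of 184 to 248, and ILMN_26350 on none, with 172 to 233. The WISP2 probe ILMN_7098 was detected on none, with intensities of 164 to 223. WISP3 probes ILMN_14801, at 137 to 213, and ILMN_9986, at 140.1 to 193, were also detected on none. Probes never detected on any array had a median intensity of 182 to 192 at 0 to 21 h and 161 to 179 at 24 to 45 h. With no filter none of the 5 WISP probes was called, the lowest time course adjusted p from limma being 0.11. A level under the detection limit is not a level of 0.

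**Figure D3:**
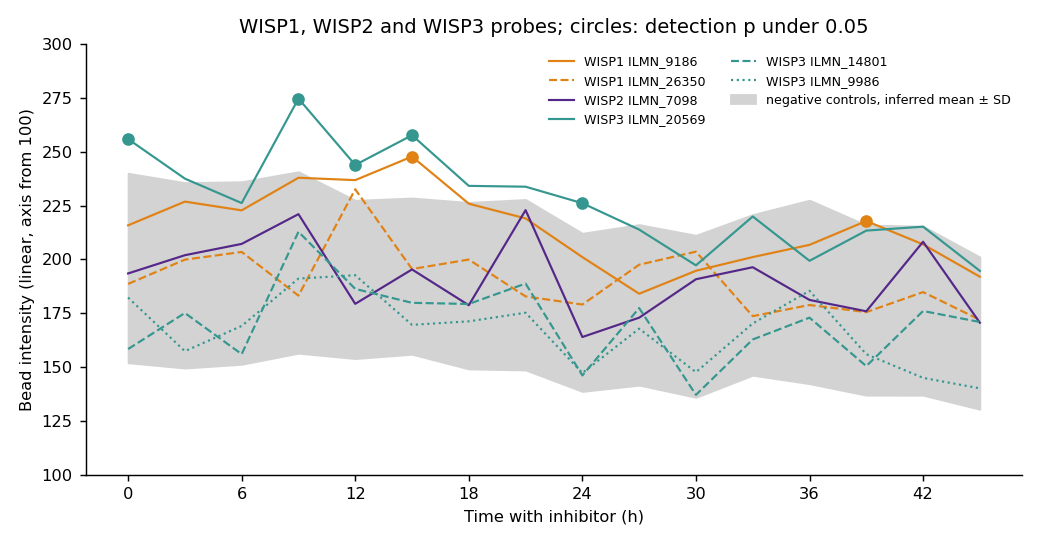
Deposited linear intensity of the 6 probes of WISP1, WISP2 and WISP3 against time with inhibitor in h, on an axis that does not start at 0. The grey band is the inferred mean and SD of the negative control beads, and circles mark arrays with a detection p under 0.05. Circles occur on 5 arrays for WISP3 ILMN_20569 and on 2 for WISP1 ILMN_9186, and the other 4 probes have none.

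Partners of the CCN proteins were read from a list of 20 receptors and bound growth factors, of which 11 were tested. All 11 were called in the time course, against 54.6% of all probes. Between 24 to 33 h and 36 to 45 h, the interval in which CTGF and CYR61 rose, 9 of the 11 rose and none fell, with a median log2 difference of 0.48 beside -0.0021 over all tested probes and 19.3% of probes called higher. The exceptions were ITGB1 at 0.02 (adjusted p = 0.89) and BMP2 at 0.18 (adjusted p = 0.69). Several of the partners had been lower before. From 0 to 9 h to 12 to 21 h ITGAV, ITGA5, ITGB3, ITGB2, SDC4, IGF2R and VEGFA were called lower, where 14.4% of all probes were. Their log2 differences ran from -0.30 for ITGB2 to -0.58 for ITGA5 and ITGB3. ITGB1 was called higher, at 0.44, and ITGB5, NOTCH1 and BMP2 were not called. The integrin subunit gene ITGB2, whose product joins CCN receptors of blood cells, went from 10.57 ± 0.089 (SD, n = 4 time points) to 11.67 ± 0.14 on the log2 scale, a difference of 1.11 (SE 0.11, limma, adjusted p = 6.2e-07). ITGAM, an integrin alpha subunit gene of the same list, was detected on no array. ITGB5, which encodes part of an adhesion receptor for CTGF and CYR61, rose by 0.52 (SE 0.095, adjusted p = 0.00033).

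From 0 to 9 h to 36 to 45 h, 3 of the 11 partners were higher and none lower, where 16.2% of all tested probes were higher and 15% lower. Their median was 0.09, beside -0.02 over all tested probes. They were ITGB2 at 0.75, ITGB5 at 0.60 and ITGB1 at 0.47 (limma, adjusted p = 0.00048). The brightest of 4 ITGB1 probes gave that value, and its other detected probes gave -0.28 and 0.09 with no call. NOTCH1, the receptor that NOV binds, was lower at 6 and 9 h than at 0 and 3 h by -0.70 on the log2 scale (SE 0.19, limma, adjusted p = 0.012) and rose by 0.52 in the late interval (adjusted p = 0.024).

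The transcripts of the regulators of CTGF and CYR61 changed in different directions in the early hours, and the activity of the proteins was not measured. YAP1, the transcriptional effector of the Hippo pathway, read 12.51, 12.36, 11.83 and 11.81 on the log2 scale at 0, 3, 6 and 9 h, a difference of -0.61 (SE 0.083, limma, adjusted p = 6e-05) in the hours in which CTGF fell. TEAD4, 1 of its DNA-binding partners, read 9.55, 9.53, 10.81 and 11.08 at the same times, a difference of 1.41 (SE 0.11, adjusted p = 4.1e-07). TEAD3 was lower by -0.48 (SE 0.15, adjusted p = 0.030), TEAD2 gave 0.10 (adjusted p = 0.58), and TEAD1 was detected on no array. WWTR1, which encodes TAZ, was detected on 11 arrays and gave 0.55 (SE 0.26, adjusted p = 0.14).

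In the late interval the regulator transcripts did not move as one group with CTGF and CYR61. TEAD2 rose by 0.38 (SE 0.093, limma, adjusted p = 0.0039) and TEAD4 changed by -0.71 (SE 0.25, adjusted p = 0.033), while YAP1 at 0.24 (adjusted p = 0.13), TEAD3 at 0.26 (adjusted p = 0.17) and WWTR1 at -0.29 (adjusted p = 0.26) were not called. In the whole list of 20 Hippo pathway and TEAD genes 15 were tested, 9 were called in the time course (54.6% of all probes were), and 3 rose and 1 fell in this interval (19.3% and 18.7% of all probes). Between 0 to 9 h and 36 to 45 h 2 were higher and none lower (16.2% and 15% of all probes), and the median was 0.01. The counts called in the time course and called higher are near those shares. The 2 were the upstream kinase gene STK3, at 0.72 (SE 0.097, adjusted p = 3e-05), and its scaffold SAV1, at 0.34 (SE 0.11, adjusted p = 0.026).

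Other targets of YAP and TAZ did not follow 1 course. Of 20 genes in a target signature without the CCN members, 13 were tested and 10 were called in the time course, against 54.6% of all probes. At 6 and 9 h against 0 and 3 h, 4 rose and 4 fell, where 13.2% of all probes rose and 11.5% fell. From 24 to 33 h to 36 to 45 h 3 rose and 2 fell, near the 19.3% and 18.7% of all probes. Between 0 to 9 h and 36 to 45 h 5 were higher and 2 lower, with a median of 0.10, where 16.2% of all probes were higher and 15% lower. AXL, a receptor tyrosine kinase, was higher by 1.00 (SE 0.12, limma, adjusted p = 1.2e-05), or 2.01-fold, and CRIM1 by 0.71 (SE 0.15, adjusted p = 0.0014). AXL was among the 4 that fell at 6 and 9 h, by -0.44 (SE 0.14, limma, adjusted p = 0.032), which lowers its early mean.

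The lower genes of this signature were IGFBP3 and F3. IGFBP3, a carrier of insulin-like growth factors, went from a mean log2 level of 10.10 at 0 to 9 h to 7.93 at 36 to 45 h, a difference of -2.17 (SE 0.23, limma, adjusted p = 3.1e-06). Its early difference, -1.14 (SE 0.17, adjusted p = 0.00012), was near that of CTGF, and its change from 24 to 33 h to 36 to 45 h was -0.13 with no call (adjusted p = 0.71). F3, the tissue factor gene, was lower by -1.10 (SE 0.33, adjusted p = 0.017) and was not called in the time course (adjusted p = 0.12). Unlike that of IGFBP3, the early difference of F3 was a rise, at 1.43 (SE 0.32, limma, adjusted p = 0.0034). The window of 0 to 9 h holds this rise (SD 1.07), which raises the early mean that the late level of F3 is compared with.

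The TGF-beta pathway, a classical inducer of CTGF, had 11 of 17 listed genes tested and 4 called in the time course, against 54.6% of all probes. Between 0 to 9 h and 36 to 45 h 2 were higher and 1 lower, near the 16.2% and 15% of all probes, with a median of 0.07. TGFBR3, the co-receptor betaglycan, rose by 1.90 (SE 0.21, limma, adjusted p = 4.6e-06), or 3.74-fold, and LTBP2 by 0.90 (SE 0.094, adjusted p = 2.2e-06). TGFBI, a matrix protein gene induced by the pathway, was lower by -0.19 (SE 0.060, adjusted p = 0.026). From 24 to 33 h to 36 to 45 h 2 genes of this list rose and 1 fell, where 19.3% of all probes rose and 18.7% fell. TGFBR2 was left untested because its detection p passed on 1 array, although its values were not dim. Its mean log2 level was 10.07 at 0 to 9 h and 10.87 at 36 to 45 h, and this difference was not tested.

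**Figure D4:**
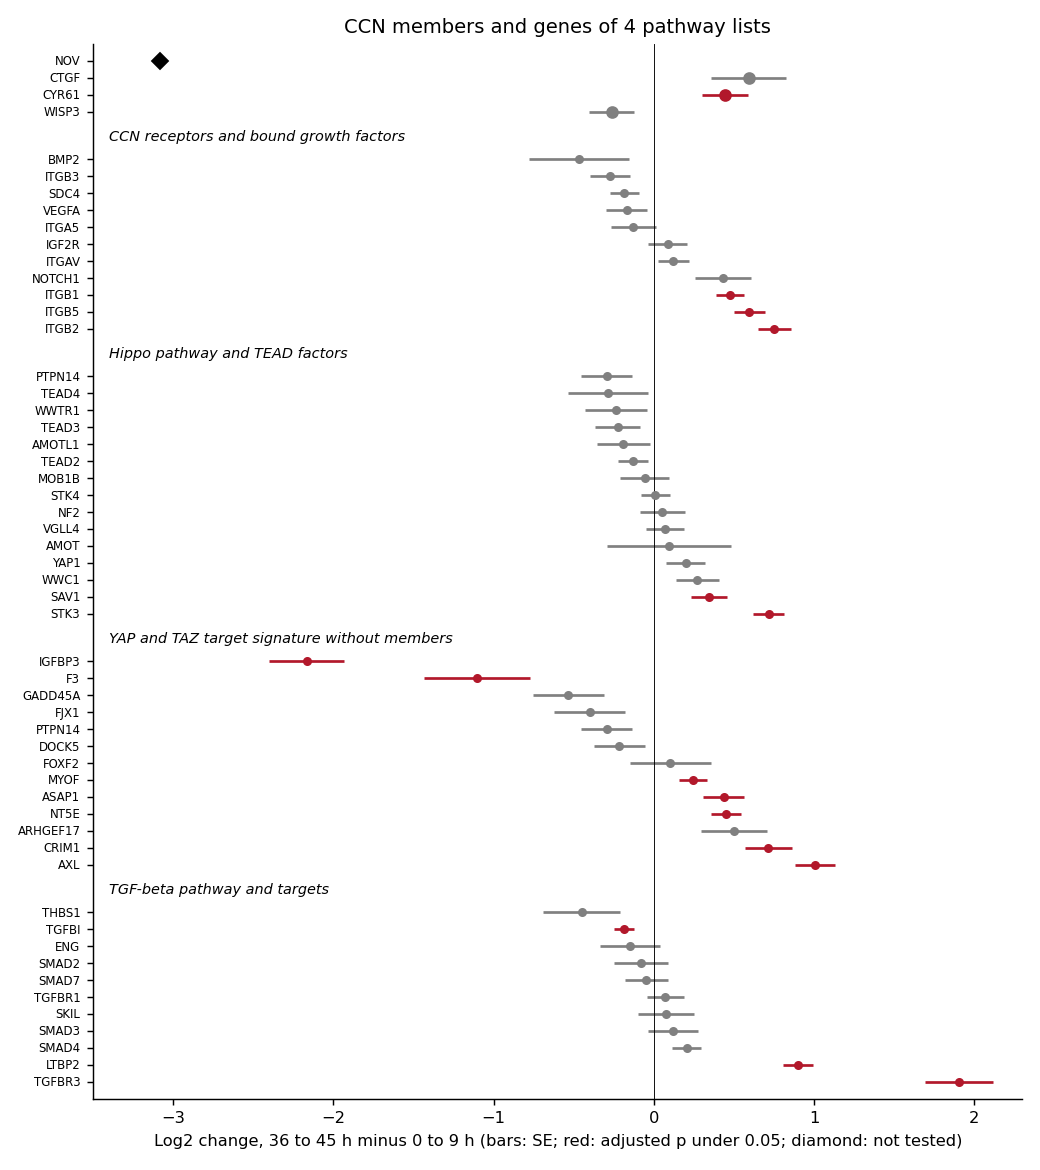
Log2 change from 0 to 9 h to 36 to 45 h for the 4 member probes that passed the filter and for the tested genes of the 4 lists, with the SE of the fit as bars. Red marks an adjusted p under 0.05 and the diamond marks NOV, which was not tested. Among the listed genes the lowest is IGFBP3 at -2.17 and the highest TGFBR3 at 1.90. The change of NOV, -3.08, is the value that chose the family, so its place beside them is not a result.

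The cells were checked against markers. Of 12 mammary epithelial markers 11 were tested, and KRT14 was detected on 1 array. Of these 4 were higher and 1 lower at 36 to 45 h than at 0 to 9 h, where 16.2% of all probes were higher and 15% lower, and the summed linear level of the list was 75487 to 105764 early and 99240 to 107528 late. TP63, the basal cell regulator, was at least 2.55-fold higher late and was not detected on the first 4 arrays. ITGB4 was higher by 1.24 with its brighter probe and gave -0.22 with no call by the other, and KRT6A was lower by -1.10 (limma, adjusted p = 0.0034). Within the first window KRT6A was higher at 6 and 9 h than at 0 and 3 h, by 1.01 (limma, adjusted p = 0.0028). Of 15 markers of fibroblasts and other cells 10 were detected on no array, among them COL1A1, COL1A2, COL3A1, PDGFRA and PDGFRB. The summed level of all 15 was 3750 to 4302 early and 5263 to 6244 late. ACTA2 was the brightest of them, at a mean log2 level of 11.36 early and 11.92 late. Of the 5 tested, 3 were higher against the same 16.2%, PECAM1 by 0.84, CD68 by 0.68 and ACTA2 by 0.56. Fewer cells of a type and less RNA per cell cannot be told apart in such samples.

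The probes whose courses were most like those of NOV, CTGF and CYR61 were sought among 3546 probes of other genes detected on all 16 arrays with a range of at least 1 log2 unit. Likeness is Pearson's r over the 16 arrays, which share the drift of neighbouring time points, and is given as a description. The nearest to NOV were ASB9 (r = 0.98), PHLDA1 (0.97), DKFZp434N035 (0.97), RAB3IL1 (0.96) and IFI30 (0.96). ASB9 went from a mean log2 level of 8.88 at 0 to 9 h to 6.66 at 36 to 45 h, and PHLDA1 from 12.67 to 10.94. The fall of NOV chose the family, so its size is not ranked against these 5.

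The nearest to CTGF were ARRDC3 (r = 0.96), C1orf63 (0.95), PAK3 (0.95), PLSCR4 (0.94) and FBXO32 (0.93). ARRDC3 and FBXO32 are known targets of FOXO transcription factors, which insulin and growth factor signalling hold in check. FBXO32, a muscle atrophy ubiquitin ligase, had the widest course of these, from a log2 level of 12.51 at 0 h to 7.91 at its lowest, and a mean of 12.04 at 36 to 45 h. The nearest to CYR61 were C18orf17 (r = 0.93), GRAMD1A (0.93), TSPAN31 (0.92), ZNF83 (0.91) and RAB40B (0.90). None of the 15 was shared between the 3 members. The members' own courses had r = -0.17 for NOV and CTGF, -0.40 for NOV and CYR61 and 0.46 for CTGF and CYR61. Over 12 to 45 h alone these values were -0.77, -0.79 and 0.87, so the early time points weaken them. Over all 16 arrays a probe this close to any member could not be as close to another, so the absence of sharing is not a result.

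**Figure D5:**
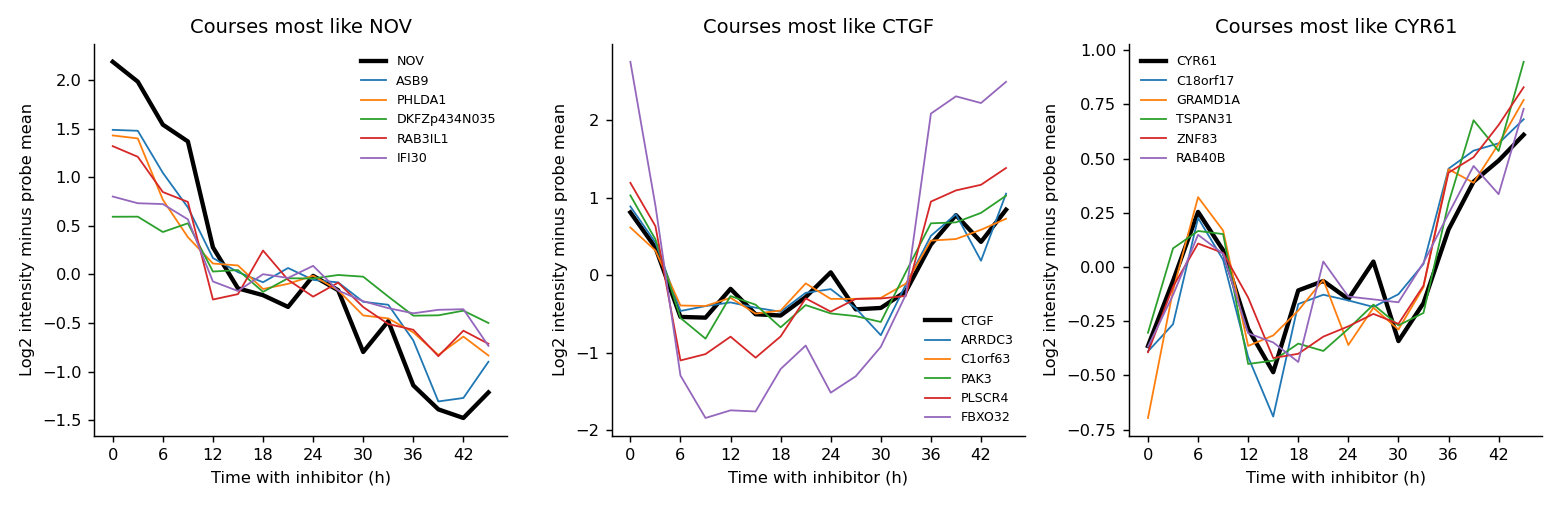
Courses over time with inhibitor in h of NOV, CTGF and CYR61 (black) and of the 5 probes most like each, as log2 intensity minus the mean of the probe over the 16 arrays. The NOV group ends far below its start, with a level stretch from 12 to 27 h and small rises between some neighbouring arrays. The CTGF group falls by 6 h and rises at 36 h, and the CYR61 group has a small peak near 6 h and its highest values at 36 to 45 h.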

How the data were processed

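RNA from MCF10A cells was measured on Illumina human Ref8v2 arrays, 1 per time point. The authors deposited linear bead intensity values that had not been normalized, together with their detection p-values, and both were used here. The summary software is not given in the sources used here. The negative control level was inferred from detection p-values of the 19092 rows whose values are whole multiples of 1 in 708 within 0.001, which stand for single probes. The other 1497 rows hold combined values. In R 4.3.3 with limma 3.58.1, normexp background correction (offset 16) was followed by quantile normalization and a log2 transformation. The offset understates the change of dim probes. Where a group was detected on no array, a fold is a bound against the lowest detected signal of each array. Plots were made in matplotlib 3.10.9.

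The tests covered the 11957 probes, for 11290 symbols, that were detected (p under 0.05) on 3 or more of the 16 arrays. Limma's moderated tests with an intensity trend were a spline of time with 3 degrees of freedom, 4 windows of 4 time points, with 12 residual degrees of freedom each, and 8 pairs of time points, with 8. Windows and pairs are not replicates of a condition, and their spread also holds change within them. P-values were adjusted by Benjamini-Hochberg over all tested probes and called under 0.05. Precision is limited by there being 1 array per time point. The tests were tried on simulated data.

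The members and gene lists were chosen with earlier results of these data known. Named genes were every member probe, up to 3 genes per list with the largest change from 0 to 9 h to 36 to 45 h among those called in both tests, YAP1, WWTR1, TEAD1 to TEAD4, and the 5 most alike probes. NOTCH1, BMP2, ITGAV, ITGA5, ITGB3, SDC4, IGF2R, VEGFA, ITGAM, F3, TGFBR2, KRT14 and the undetected markers were named after their values were seen. For genes with several probes the brightest was used. An item of the TGF-beta list is not reported here and was left out of its counts. Symbols are those of the file, matched through older names where needed (TP63 as TP73L). The alternatives were other background corrections, offsets, normalizations, filters, curves and fits, and leaving out each array. Proteins and the promoters of NOV, CYR61, WISP1 and WISP2 were not used here.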

Additional observations from a re-analysis of the deposited data

How the results depend on the processing

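Of 135 member tests under alternatives other than leaving out an array, 129 kept their direction and their side of the threshold, and of 288 tests that each left out 1 array, 272 did. The change of NOV from 0 to 9 h to 36 to 45 h was -1.97 without background correction, -2.74 with an offset of 50 and -3.44 for 42 and 45 h against 0 and 3 h. Without background correction its other changes were -1.37 (to 12 to 21 h) and -0.45 (24 to 33 h to 36 to 45 h). The late against early difference of CTGF was called after median scaling, at 0.74 (limma, adjusted p = 0.013), and in the fit of 8 pairs, at 0.59 (adjusted p = 0.0026). That of CYR61, 0.44, was not called when only the 8 arrays compared were fitted (adjusted p = 0.080). A straight line in time gave adjusted p = 0.33 for CTGF and 0.078 for CYR61, and called 9 genes of the 4 lists (34 with the spline) and 1953 probes (6533).

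With each array left out in turn, the late against early difference ranged from 0.40 to 0.86 for CTGF and from 0.33 to 0.53 for CYR61, the early difference of CYR61 from 0.23 to 0.53, the adjusted p of WISP3 over the time course from 0.032 to 0.24, and the list genes called lower at 36 to 45 h from 2 to 6, against 3 with all arrays (6 without the 0 h and 5 without the 9 h array). Small differences that were not called changed sign. The difference of WISP3 from 0 to 9 h to 12 to 21 h was 0.00012, -0.0029 with an offset of 50 and from -0.10 to 0.11 with an array left out. Its range was -0.12 to 0.026 from 24 to 33 h to 36 to 45 h and -0.30 to 0.34 at 6 and 9 h against 0 and 3 h, and that of CYR61 from 12 to 21 h to 24 to 33 h was -0.0054 to 0.14. Over the whole array, 2475 probes were called late against early with only the 8 arrays compared (3730 otherwise), and 1696 at 6 and 9 h against 0 and 3 h without the 9 h array (2957 otherwise). Between 12 to 21 h and 24 to 33 h the count was 11 after median scaling, 1 with no intensity trend, and 1 to 6 with an array left out, against 3. The cause of these differences was not tested. Median scaling moved the median late change of all probes from -0.02 to 0.07. WISP3 has no value when detection on all 16 arrays is required, since it was detected on 5. Signal over background limits the WISP probes and the late values of NOV. No paired analysis was possible because each time point holds 1 sample and the labels number every sample 1. The labels name no chip, so none was fitted as a block.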
